A study of Mus musculus with 7 samples.

Results

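The egg calcium signalling genes examined here are Itpr1, Cacna1h, Trpm7, Trpv3, Atp2a2, Atp2b1, Camk2g, Stim1 and Orai1, which are 9 of the 55364 genes listed with an expression value. They were picked by symbol, and each symbol occurred once. The cells are mini-oocytes, oocyte-like cells made in flat culture from mouse embryonic stem cells (mESCs) by forced expression of oocyte transcription factors. RNA-seq covered mini-oocytes made with 4 factors (4F) at day 7 (n = 2) and at day 21 (n = 3), and mini-oocytes made with 8 factors (8F) at day 21 (n = 2). Values are TPM, in which reads are corrected for the length of the gene's exons and every library is scaled to the same total, so levels of different genes can be set side by side.

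All 3 groups descend from the female BVSC H18 mESC line on a hybrid 129/C57BL6 background. 4F cells carried Nobox, Figla, Tbpl2 and Lhx8, and 8F cells carried these 4 factors together with Stat3, Dynll1, Sub1 and Sohlh1. The factors were fused to a destabilization domain and stabilized with Shield-1. From a point after day 7 and before day 21, Shield-1 was left out of the fresh medium. Every group was grown with SCF and Y-27632 on plates coated with poly-L-ornithine and laminin, and no ovarian somatic cells were added. A day 7 library pooled 1000 cells and a day 21 library pooled 10 cells. Day, number of cells and the supply of Shield-1 therefore changed together and cannot be told apart. The groups come from a single parental line, and the labels do not say whether replicates were separate inductions, so the p-values measure only the spread between these libraries. TPM of pooled cells cannot tell fewer cells of a kind from less RNA per cell.

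In the mammalian egg, sperm entry sets off repeated rises of cytosolic calcium. The IP3 receptor releases calcium from the endoplasmic reticulum (ER), SERCA pumps return it to the ER, and plasma membrane pumps push it out of the cell. Channels in the plasma membrane replace what is lost, and calmodulin-dependent kinase II reads the rises and starts the exit from meiotic arrest. The machinery is laid down while the oocyte grows in the follicle, before it is used.

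Depth, recovered from the steps of low TPM values, was about 9506135 to 12317535 reads on genes at day 7 and 14612696 to 18027834 at day 21. The 10 most abundant genes held 28.5% to 31.8% of TPM at day 7 and 10.2% to 14.0% at day 21. All 10 oocyte markers were at 1 TPM or more in every library, and their summed level was 12743 to 15142 TPM at day 7, 35493 to 38231 in 4F at day 21, and 29977 to 31010 in 8F. Summed granulosa, mesenchyme and muscle markers stayed between 0.0248 and 8.59 TPM. Summed neuron markers were 13.1 to 24.3 TPM at day 7, 207 to 242 in 4F and 303 to 321 in 8F at day 21, with Stmn2 at 0 in all 7 libraries. Tubb3 was at 5.74 to 6.68 TPM at day 7, beside Map2 at 5.81 to 6.61, and made up most of the sum at day 21, at 188 to 221 in 4F and 291 to 307 in 8F. Summed pluripotency markers were 64.4 to 86.4, 237 to 348 and 147 to 184 TPM in the same order, with Nanog at 0 at day 21 and Pou5f1 at 24.4 to 30.1, 154 to 267 and 73.7 to 102.5 TPM. The 6 keratinocyte markers summed to 61.9 to 93.1 TPM, of which Trp63 held 53.7 to 90.0 and Krt10 1.09 to 12.7 TPM, with Krt5 and Ivl at 0 throughout. The part of these markers in the results below was not tested. Values of the 8F libraries were also written with up to 17 decimals and those of the 4F libraries with up to 9, so any difference in their preparation cannot be told apart from the factor set.

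Promoters of the members were searched for E-boxes of the kind bound by FIGLA with its partner (CAGGTG or CAGCTG), for core letters of NOBOX and LHX8 sites (TAATTA or TAATTG or TGATTG) and for a TATA box (TATAAA), on both strands, over 250 bases before and 50 after the start. RefSeq promoters (GRCm38.p6, the assembly behind mm10) matched 5 of the 9 genes, namely Trpm7, Trpv3, Stim1, Orai1 and Atp2b1, the last with 2 promoters. Of these 6 promoters, only those of Trpv3 and Orai1 held any of these letters. Trpv3 had CAGGTG at positions -29 to -24 from its RefSeq start and CAGCTG at 9 to 14, and Orai1 had CAGCTG at -246 to -241. Of all 32851 promoters, 20.2% held CAGGTG, 16.3% CAGCTG, 5.29% TAATTA, 8.00% TAATTG, 14.0% TGATTG and 13.6% TATAAA. Trpv3 had 4 CG pairs in 300 bases, against 35 in Trpm7, 36 in Orai1, 38 in Stim1, 45 and 54 in Atp2b1 and a median of 7 over all promoters. The sequences below are those of Orai1 and Trpv3, the members with the largest rises, and of Trpm7. Among the members that fell, only Trpm7 passed the main test described below. Each sequence ends before the annotated gene begins, with the motif in capitals. The Trpv3 site itself is shown in a stretch of 30 bases because the annotated transcript starts before it.
Orai1, chr5:123014824-123015073, plus strand: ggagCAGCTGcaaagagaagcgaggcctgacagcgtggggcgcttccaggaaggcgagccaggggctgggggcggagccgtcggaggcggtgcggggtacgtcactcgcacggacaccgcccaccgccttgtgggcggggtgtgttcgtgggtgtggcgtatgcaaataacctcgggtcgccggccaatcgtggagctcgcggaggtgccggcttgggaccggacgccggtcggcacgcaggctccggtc
Trpv3, chr11:73267270-73267387, plus strand: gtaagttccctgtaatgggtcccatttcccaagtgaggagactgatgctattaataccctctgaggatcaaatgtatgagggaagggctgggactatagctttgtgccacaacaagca
Trpv3 site, chr11:73267479-73267508, plus strand: tgatgccgagggCAGGTGgcccagccagtt
Trpm7, chr2:126876262-126876511, minus strand: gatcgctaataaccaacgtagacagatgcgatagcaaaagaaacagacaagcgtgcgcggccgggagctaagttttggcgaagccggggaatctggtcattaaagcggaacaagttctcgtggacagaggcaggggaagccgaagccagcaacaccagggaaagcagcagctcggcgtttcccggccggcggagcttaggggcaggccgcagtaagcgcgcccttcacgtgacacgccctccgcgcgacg

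From day 7 to day 21 of the 4F culture, the calcium store pump, the kinase that reads calcium and the entry channel Trpv3 rose. These calls held in all 10 other settings, while that of the entry channel Cacna1h held in 1. No change of the release channel passed the main test, but a fall passed in 2 of these 10 settings. Atp2a2, Camk2g, Trpv3 and Cacna1h were higher at day 21, Trpm7 was lower, and Itpr1, Atp2b1 and Stim1 did not pass the test (limma on log2(TPM + 1), Benjamini-Hochberg FDR 0.05). Orai1 passed too, but entered the test only through its day 21 values, so its call is no support. The calls are those of 5 of the other 8 members, where 40.6% of all 21780 tested genes passed, 25.3% higher and 15.3% lower at day 21. The share of higher genes among those called was 62.3%, and it was 48.6%, 52.0% and 37.3% after median-of-ratios rescaling, quantile normalization and voom on recovered reads. Over all tested genes the median log2 change was 0.17, and -0.06, 0.04 and -0.32 in the same 3 scalings. All 9 genes passed the filter of 1 TPM in 2 libraries.

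**Figure D1:**
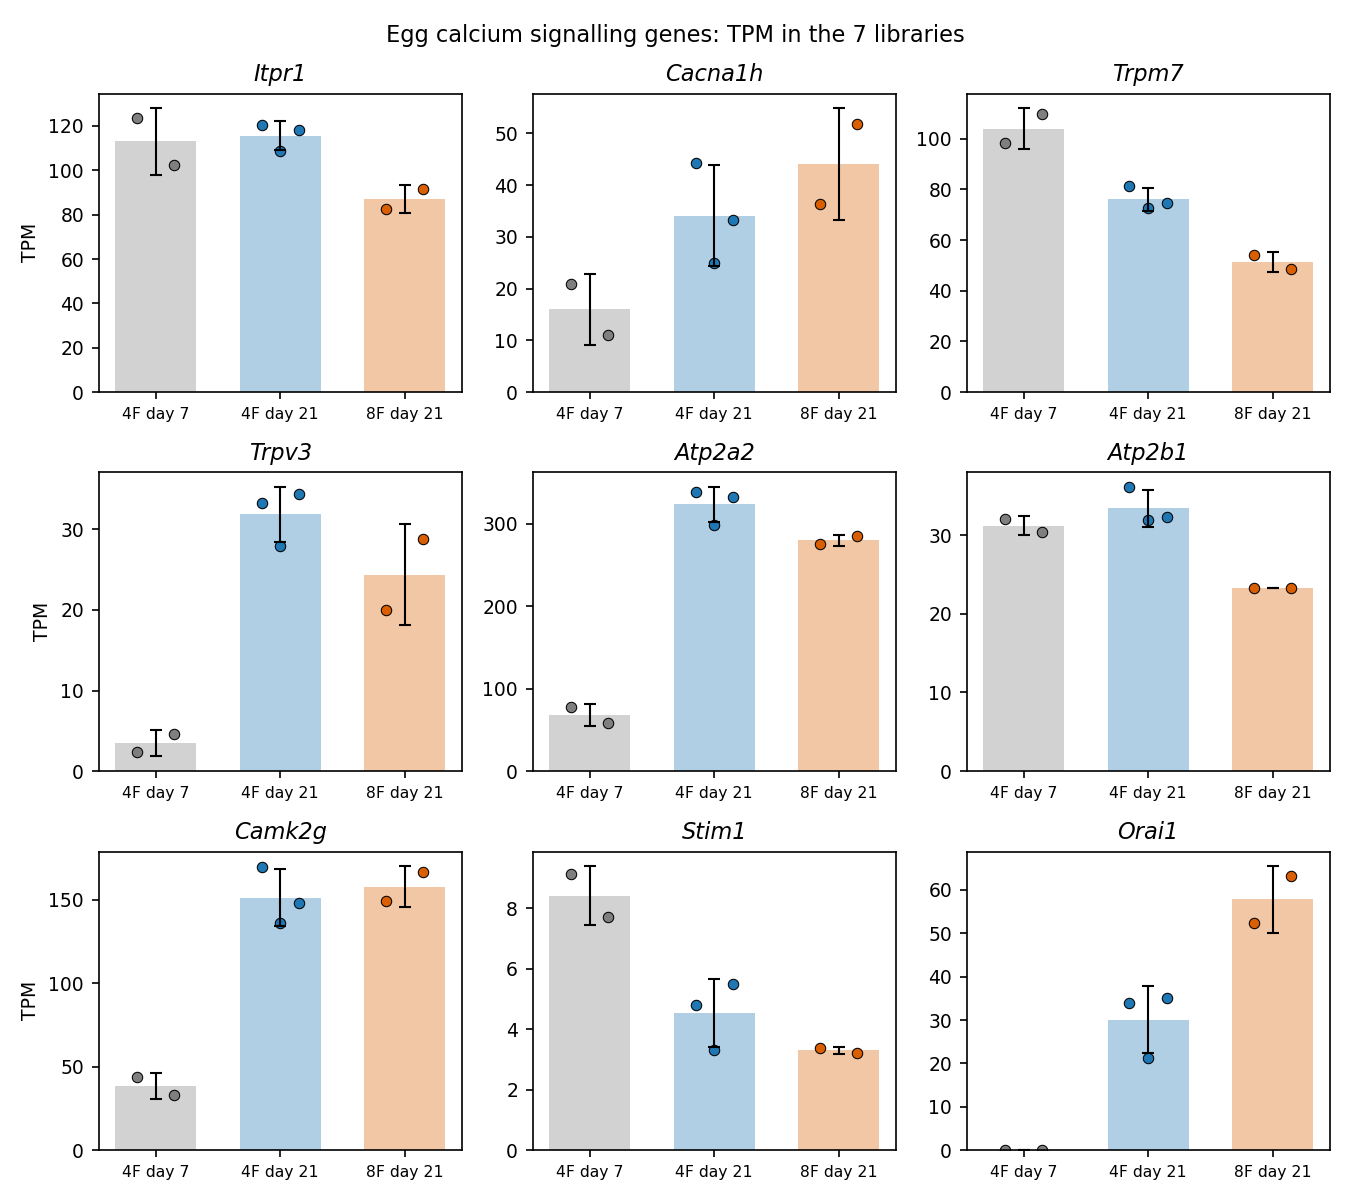
TPM of the 9 genes (vertical axes, each starting at 0) in 4F cells (day 7, day 21) and 8F cells (day 21). Points are libraries, bars are group means and error bars are SD (n = 2, 3 and 2); Orai1 is listed at 0 in both day 7 libraries and Atp2a2 is the highest gene in both day 21 groups.

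Itpr1 (ENSMUSG00000030102.11, mm10 chr6:108213096-108551109, plus strand) encodes the IP3 receptor through which the egg releases calcium from the ER. It measured 123.8 and 102.4 TPM at day 7, 120.4, 108.5 and 118.1 TPM in 4F at day 21, and 82.5 and 91.6 TPM in 8F. The day 7 and day 21 4F libraries overlapped, and both 8F libraries lay below all the others. Between the days the log2 fold change was 0.04 ± 0.12 (SE; adjusted p = 0.840; 95% interval -0.26 to 0.33). Its direction depended on scaling, at -0.30, -0.59 and -0.49 after median-of-ratios, quantile and voom scaling, and the last pair passed (adjusted p = 0.0127 and 0.00155). At day 7 the libraries of Itpr1 and Trpm7 overlapped. Of the 9 genes Itpr1 had the highest mean there, 113.1 ± 15.1 TPM (SD), above 95.6% of the genes tested. At day 21 it was behind Atp2a2 and Camk2g in 4F at 115.7 ± 6.3 TPM, above 92.2% of the tested genes.

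Atp2a2 (ENSMUSG00000029467.15, chr5:122453513-122502225, minus strand) encodes SERCA2, the pump that refills the ER store. Its level was 77.3 and 58.4 TPM at day 7, 338.7, 299.2 and 333.2 TPM in 4F at day 21, and 275.4 and 284.7 TPM in 8F. No day 21 library came near the day 7 range. In 4F the mean rose 4.77-fold, with a log2 fold change of 2.25 ± 0.14 (adjusted p = 0.000102). Atp2a2 passed in all 10 other settings and in all 7 fits that left out a library. With the rise it moved from below Itpr1 and Trpm7 at day 7 to the top of the 9 genes at day 21, above 98.2% of the genes tested in 4F.

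Atp2b1 (ENSMUSG00000019943.10, chr10:98914406-99026143, plus strand) encodes a plasma membrane pump that exports calcium. It stood at 32.1 and 30.4 TPM at day 7, 36.2, 31.9 and 32.3 TPM in 4F at day 21, and 23.3 in both 8F libraries. The 4F groups overlapped and the 8F libraries were lowest. The log2 fold change between days in 4F was 0.09 ± 0.14 (adjusted p = 0.625; 95% interval -0.24 to 0.43), and it turned to -0.24, -0.30 and -0.44 after median-of-ratios, quantile and voom scaling, with only the last past the threshold (adjusted p = 0.00917). Its profile over the 7 libraries was the closest to that of Itpr1 among the members, with a root mean square difference of 0.0856 in centred log2(TPM + 1).

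Ratios within a library do not depend on a factor that scales the whole library, though quantile normalization can change them. The ratio of Atp2a2 to Itpr1 was 0.625 and 0.571 at day 7, 2.81, 2.76 and 2.82 in 4F at day 21, and 3.34 and 3.11 in 8F. The store pump was thus below the release channel in each day 7 library and above it in each day 21 library. The ratio of Atp2a2 to Atp2b1, store filling against export, was 2.41 and 1.92 at day 7, 9.37, 9.38 and 10.3 in 4F at day 21, and 11.8 and 12.2 in 8F. Neither ratio overlapped between any of the 3 groups. The ratios were chosen after the values had been seen and are given without a test.

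Camk2g (ENSMUSG00000021820.18, chr14:20734875-20794088, minus strand) encodes the gamma subunit of calmodulin-dependent kinase II, the form known to be needed for egg activation in mice. It measured 44.0 and 33.1 TPM at day 7, 169.5, 136.1 and 148.0 TPM in 4F at day 21, and 149.0 and 166.7 TPM in 8F. The day 21 libraries of both factor sets overlapped and all lay far above day 7. Its log2 fold change between days was 1.95 ± 0.16 (adjusted p = 0.000263), and it passed in all 10 other settings and all 7 fits without a library. Its profile was closest to that of Atp2a2 (root mean square difference 0.152). Set against Itpr1, Camk2g was at a ratio of 0.355 and 0.323 at day 7, 1.41, 1.25 and 1.25 in 4F at day 21, and 1.81 and 1.82 in 8F.

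Trpv3, Cacna1h and Trpm7 are entry channels of the egg membrane. Trpv3 (ENSMUSG00000043029.2, chr11:73267388-73300363, plus strand) encodes a cation channel that appears in the egg late in its growth and maturation. It rose from 2.40 and 4.66 TPM, or about 55 and 142 reads, to 33.3, 27.9 and 34.3 TPM in 4F at day 21, and stood at 20.0 and 28.8 TPM in 8F. Every day 21 library was above every day 7 library, and 4F and 8F overlapped. The mean in 4F rose 9.02-fold, with a log2 fold change of 2.90 ± 0.29 (adjusted p = 0.000562), which passed in all 10 other settings and all 7 fits without a library. Trpv3 moved from above 32.2% to above 74.0% of the tested genes.

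Cacna1h (ENSMUSG00000024112.16, chr17:25374285-25433783, minus strand) encodes the pore of the T-type channel CaV3.2, which carries calcium into growing and maturing oocytes. It was at 20.8 and 11.1 TPM at day 7, 44.2, 24.9 and 33.3 TPM in 4F at day 21, and 36.4 and 51.7 TPM in 8F. The days did not overlap in 4F, as in 56.7% of the tested genes, but replicates spread widely. The log2 fold change of 1.07 ± 0.35 was at the edge of the test (adjusted p = 0.0467). It passed in 1 of 10 other settings, a filter of 5 TPM. The adjusted p was 0.255 without day 7 replicate 2, where the log2 fold change was 0.65, 0.116 and 0.0977 without day 21 4F replicates 1 and 3, and 0.0921 and 0.0930 without 8F replicates 1 and 2.

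Trpm7 (ENSMUSG00000027365.14, chr2:126791565-126876230, minus strand) encodes a channel joined to a kinase that passes calcium and magnesium. It was at 98.3 and 109.9 TPM at day 7, 81.3, 72.6 and 74.6 TPM in 4F at day 21, and 54.2 and 48.5 TPM in 8F. The 3 groups stood in steps without overlap. Between days in 4F it fell by 0.44 ± 0.12 on the log2 scale (adjusted p = 0.0238). The call held in 8 of 10 other settings and was lost without the variance trend and with a replicate term (adjusted p = 0.0970 and 0.101). It was also lost without day 7 replicate 2 (adjusted p = 0.0752) and without day 21 4F replicates 2 and 3 (0.0579 and 0.0572). Trpm7 was below the median change of all tested genes in the original and in each of the 3 other scalings.

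Store-operated entry joins STIM1, which senses an empty ER store, to ORAI1, the pore it opens in the plasma membrane. Orai1 (ENSMUSG00000049686.14, chr5:123015074-123030456, plus strand) was listed at 0 in both day 7 libraries, where 3 reads would have given 0.333 and 0.250 TPM. At day 21 it was at 33.9, 21.2 and 35.1 TPM in 4F, or about 365, 211 and 338 reads, and at 52.4 and 63.3 TPM in 8F, or about 701 and 821 reads. Against a floor of 3 reads per library, the mean at day 21 was at least 90.3-fold higher in 4F and at least 174-fold higher in 8F than at day 7. The 8 housekeeping genes examined were above 0 in every library. Floors of this kind cover counting error only.

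Stim1 (ENSMUSG00000030987.5, chr7:102267806-102437319, plus strand) went the other way, at 9.12 and 7.72 TPM at day 7, 4.82, 3.31 and 5.49 TPM in 4F at day 21, and 3.39 and 3.22 TPM in 8F. Day 7 and day 21 did not overlap. Its log2 fold change in 4F was -0.78 ± 0.35 (adjusted p = 0.124), and it passed in 3 of 10 other settings, among them median-of-ratios scaling at -1.08 (adjusted p = 0.0412) and voom at -1.44 (adjusted p = 0.00259). It was the least abundant member at day 21, above 39.6% of tested genes in 4F. The ratio of Orai1 to Stim1 was 0 in both day 7 libraries, 7.05, 6.40 and 6.39 in 4F at day 21, and 15.5 and 19.6 in 8F.

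Orai1 begins head to head with Gm2479, an antisense gene (chr5:123007299-123015080, minus strand) that shares 7 exonic bases with it, or 0.305% of the Orai1 exons, and covers the promoter sequence shown above. Gm2479 was at 0 and 7.20 TPM at day 7, 47.4, 40.5 and 50.4 TPM in 4F at day 21, and 80.0 and 73.6 TPM in 8F. It was thus low at day 7 and highest in 8F, as Orai1 was. No strand option is stated for the counting, so reads over shared bases cannot be assigned to either strand. Shared exonic bases were few in the other members too, at 0.988% and 0.590% of Itpr1 exons (with Gm44101 and Gm44040), 1.62% of Cacna1h (with Tpsg1), 1.36% of Atp2a2 (with Gm43361) and none in the other 5 members.

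**Figure D2:**
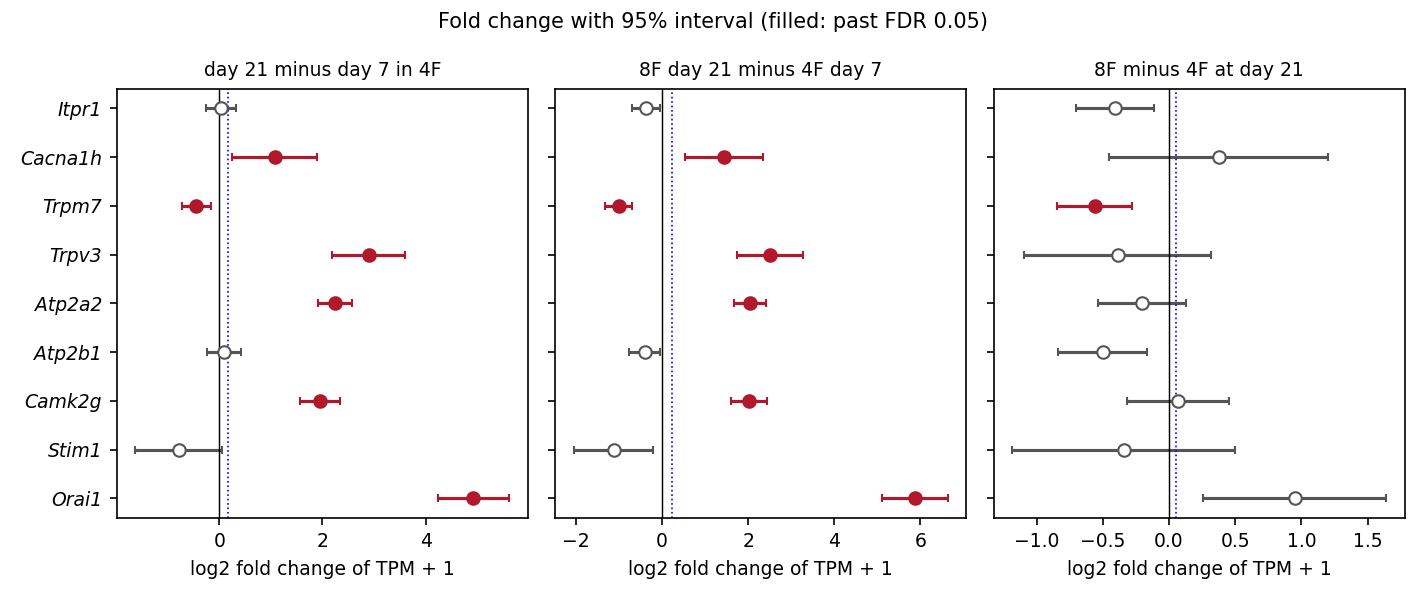
Log2 fold change of TPM + 1 (horizontal axes, a different range in each panel) for each gene in the 3 comparisons. Points are estimates, bars are 95% intervals and filled red points passed FDR 0.05. The solid line marks no change and the dotted line the median of all tested genes. From left to right 6, 6 and 1 of the 9 genes passed, against 40.6%, 37.2% and 8.37% of all tested genes. Both counts of 6 include Orai1, which entered the test only through its day 21 values.

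When the factor sets were compared at day 21, Trpm7 was the only member that passed, where 8.37% of all tested genes did (3.95% higher and 4.41% lower in 8F). Trpm7 was lower in 8F by a log2 fold change of -0.56 ± 0.12 (adjusted p = 0.0375; mean 51.4 against 76.2 TPM). The call was lost after median-of-ratios scaling and quantile normalization (adjusted p = 0.0558 and 0.0536), without the variance trend (0.150) and with a replicate term (0.151). It was also lost without each of the 5 day 21 libraries in turn, at adjusted p = 0.0902, 0.0700 and 0.0804 without 4F replicates 1 to 3 and 0.147 and 0.217 without 8F replicates 1 and 2.

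In 4 more members the 8F and 4F libraries did not overlap, which was so for 43.8% of all tested genes. Orai1 was at a log2 fold change of 0.95 ± 0.29 (adjusted p = 0.108; 95% interval 0.26 to 1.64), and with voom on recovered reads it passed at 1.12 (adjusted p = 0.0188). Atp2b1 was at -0.50 ± 0.14 (adjusted p = 0.0848; interval -0.83 to -0.17) and Itpr1 at -0.41 ± 0.12 (adjusted p = 0.109; interval -0.70 to -0.11), and neither passed in any setting. Atp2a2 was at -0.21 ± 0.14 (adjusted p = 0.462; interval -0.54 to 0.13). The remaining 4 members overlapped between factor sets, with intervals of -0.32 to 0.45 for Camk2g, -0.45 to 1.20 for Cacna1h, -1.09 to 0.32 for Trpv3 and -1.18 to 0.50 for Stim1. Differences of more than 2-fold in Cacna1h, Trpv3 and Stim1 therefore lie within what these libraries allow.

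The last comparison set 8F cells of day 21 against 4F cells of day 7, groups whose libraries also enter the comparisons above. Besides Orai1, whose mean was at least 174-fold higher as given above, 5 of 8 members passed, where 37.2% of tested genes did (24.2% higher and 13.0% lower), and all 9 had groups that did not overlap, as did 72.3% of tested genes. Trpv3, Atp2a2, Camk2g and Cacna1h were higher, with log2 fold changes of 2.51 ± 0.32, 2.04 ± 0.15, 2.02 ± 0.18 and 1.45 ± 0.38, and Trpm7 was lower, with a mean of 51.4 against 104.1 TPM. Their adjusted p ranged from 0.000298 to 0.0245. The Cacna1h call was lost without day 7 replicate 2 (adjusted p = 0.120), without either 8F library (0.0823 and 0.173), and in the fit of these 2 groups alone (0.0596). Stim1 at -1.13 ± 0.38 (adjusted p = 0.0597), Atp2b1 at -0.41 ± 0.15 (0.0809) and Itpr1 at -0.37 ± 0.14 (0.0750) did not pass. All 3 did after median-of-ratios, quantile and voom scaling. The Itpr1 call was gained without day 7 replicate 2 (adjusted p = 0.0321), and that of Stim1 without 4F day 21 replicate 2 (0.0473).

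The order of the members by mean TPM changed with day. At day 7 it ran Itpr1 (113.1), Trpm7 (104.1), Atp2a2 (67.9), Camk2g (38.6), Atp2b1 (31.2), Cacna1h (16.0), Stim1 (8.42), Trpv3 (3.53) and Orai1 (0). In 4F at day 21 it ran Atp2a2 (323.7), Camk2g (151.2), Itpr1 (115.7), Trpm7 (76.2), Cacna1h (34.1), Atp2b1 (33.4), Trpv3 (31.8), Orai1 (30.1) and Stim1 (4.54). In 8F Orai1 stood just behind Itpr1 at 57.9 TPM, above Trpm7 at 51.4 and Cacna1h at 44.1. Neighbours whose libraries overlapped, and so cannot be ranked, were Itpr1 and Trpm7 at day 7, the 4 genes from Cacna1h to Orai1 in 4F at day 21, and Orai1 with Trpm7, Trpm7 with Cacna1h, and Trpv3 with Atp2b1 in 8F. The 9 genes summed to 407.8 and 357.7 TPM at day 7, 862.4, 725.5 and 814.4 in 4F at day 21, and 696.6 and 761.9 in 8F. Without Atp2a2 and Camk2g the sums were 286.4 and 266.1, 354.1, 290.3 and 333.2, and 272.2 and 310.4 TPM. On that sum day 7 lay just below 4F at day 21 in the original scaling, with the nearest libraries at 286.4 and 290.3 TPM, and 8F overlapped both. Whether this order holds in the other scalings was not tested.

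Each member belongs to a family of related genes, and for most of them the member carried most of the family's TPM. Atp2a2 made up 93.1% to 100% of SERCA, Trpm7 94.6% to 98.6% of TRPM6 and TRPM7, and Camk2g 92.3% to 99.4% of the CaMKII subunits. Trpv3 held 41.3% and 79.2% of TRPV channels at day 7, where Trpv2 held 40.4% in 1 library, and 70.2% to 90.7% at day 21. Itpr1 held 71.9% to 79.7% of IP3 receptor TPM, Cacna1h 50.9% to 70.3% of T-type channels and Atp2b1 44.8% to 56.4% of plasma membrane pumps. Of the 21 paralogues, 13 were tested, and 2 were higher and 1 was lower at day 21 in 4F (23.1% against 40.6% of all tested genes). Trpv1, Trpv2, Trpv5, Atp2a1, Atp2a3, Atp2b2, Camk2a and Orai2 were too low to test. None of the 13 passed between 8F and 4F by limma or by voom, and 2 had an unadjusted p under 0.05.

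**Figure D3:**
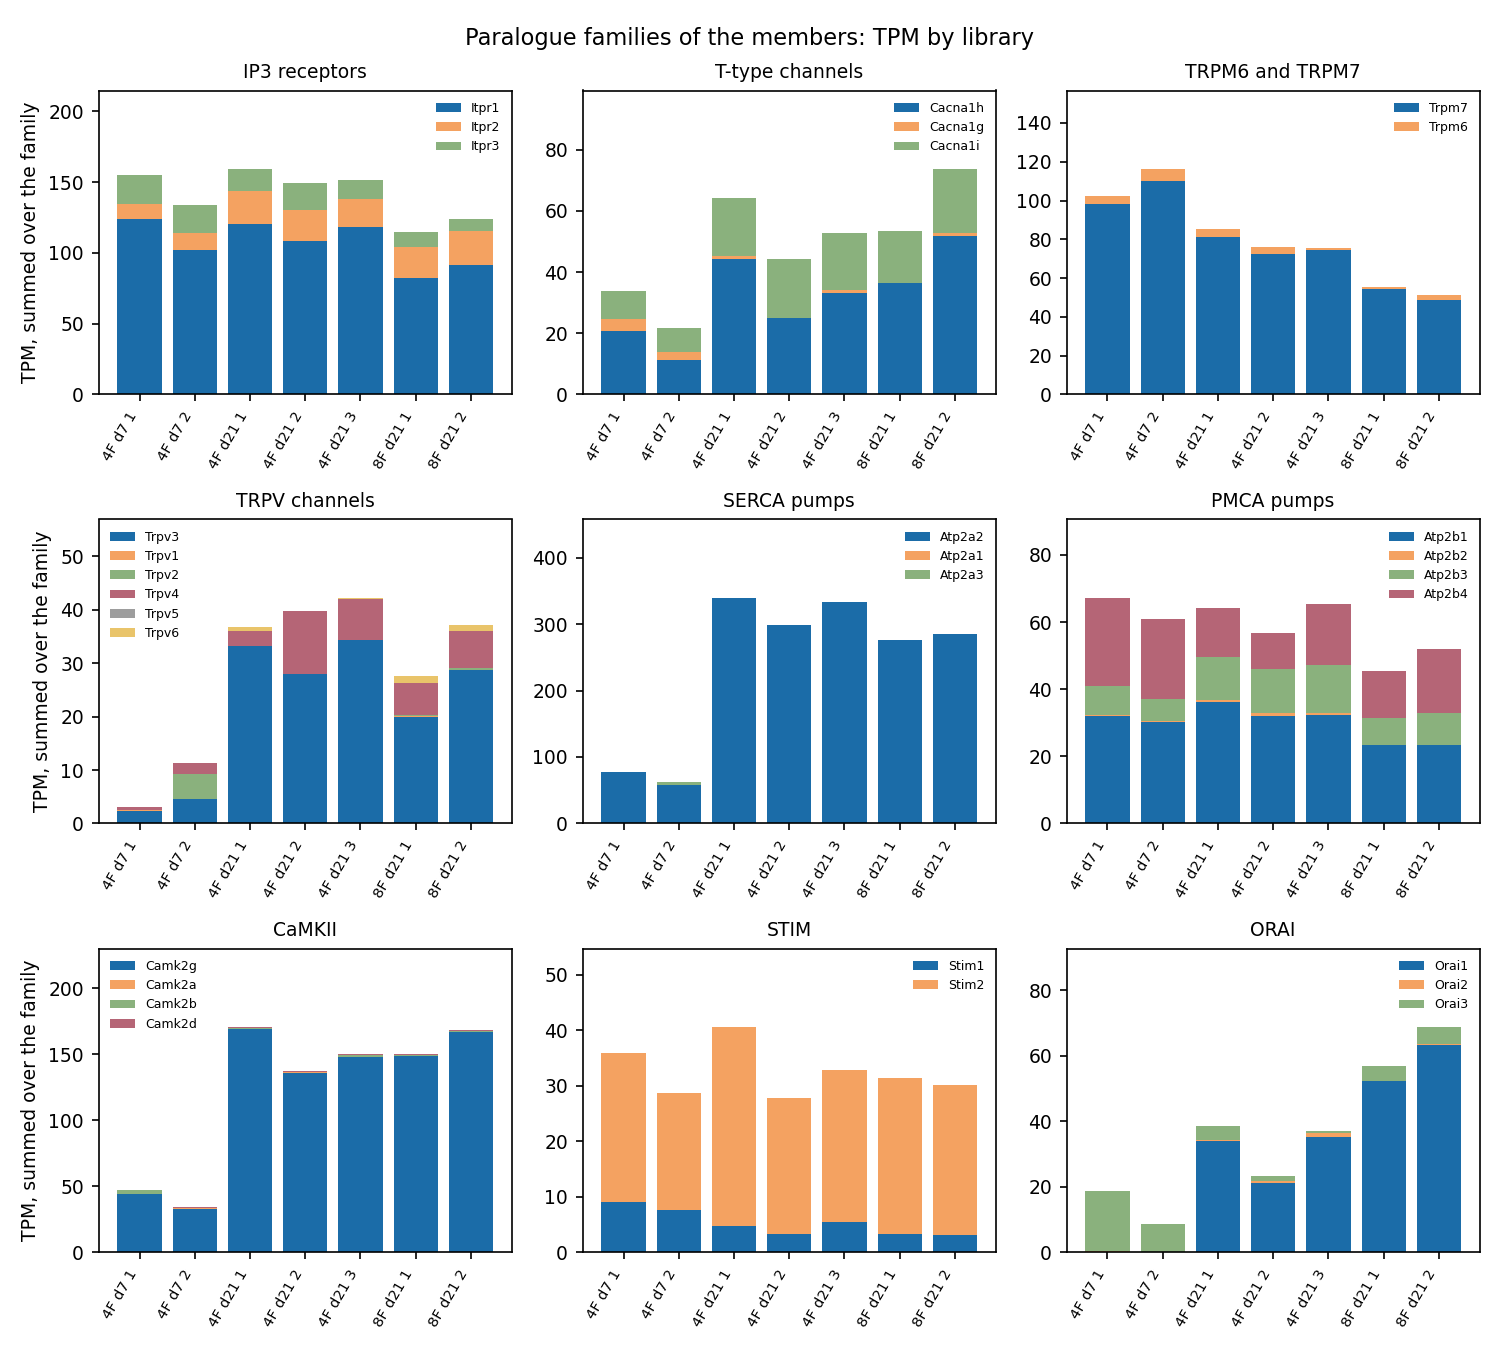
TPM of each member's family in the 7 libraries, as stacked bars with the member at the base; the vertical axes start at 0 and differ between panels. The bars of the ORAI family are almost all Orai3 at day 7 and mostly Orai1 at day 21, while those of the STIM family are mostly Stim2 in every library.

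The ORAI family changed its main member. Orai3 held 97.8% to 98.5% of ORAI TPM at day 7, and Orai1 held 87.7% or more in every day 21 library. Orai3 was at 18.4 and 8.50 TPM at day 7, 4.39, 1.40 and 0.501 TPM in 4F at day 21, and 4.29 and 5.12 TPM in 8F. It fell in 4F by 2.34 ± 0.63 on the log2 scale (adjusted p = 0.0246). It passed in 7 of 10 other settings, and in the fits without 4F day 21 replicate 1 or 3. Without day 7 replicates 1 and 2 the adjusted p was 0.155 and 0.0514, without 4F day 21 replicate 2 it was 0.0592, and without 8F replicates 1 and 2 it was 0.0696 and 0.0697. Stim2, the ER sensor that responds to smaller losses of calcium, was at 26.7 and 21.0 TPM at day 7, 35.7, 24.5 and 27.3 in 4F at day 21, and 27.9 and 26.8 in 8F. It held 73.2% to 74.6% of STIM TPM at day 7 and 83.2% to 89.3% at day 21, and its log2 fold change in 4F was 0.27 ± 0.21 (adjusted p = 0.348).

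Among IP3 receptors, Itpr2 rose from 10.7 and 11.6 TPM to 23.2, 22.0 and 19.7 TPM in 4F at day 21 and stood at 21.8 and 24.0 TPM in 8F. Its log2 fold change in 4F was 0.90 ± 0.18 (adjusted p = 0.00794), and it passed in 9 of 10 other settings, with voom at 0.41 (adjusted p = 0.0652) the exception. Itpr2 made up on average 7.77%, 14.1% and 19.2% of IP3 receptor TPM in the 3 groups, and its share did not overlap between them. Cacna1i, the pore of another T-type channel, was at 9.22 and 8.08 TPM at day 7, 18.9, 19.3 and 18.9 in 4F at day 21, and 16.9 and 20.9 in 8F. It was higher at day 21 by 1.06 ± 0.20 (adjusted p = 0.00648), in all 10 other settings and all 7 fits without a library. Of the pumps, Atp2b3 at 0.74 ± 0.25 (adjusted p = 0.0553) and Atp2b4 at -0.77 ± 0.27 (0.0599) did not pass, nor did the entry channel Trpv4 at 1.78 ± 0.61 (0.0574), whose 4F libraries at day 21 ranged from 2.78 to 11.8 TPM.

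The wider calcium machinery was described by 7 further lists, with 74 tested genes, and with the paralogues 31 of 87 tested genes were higher and 15 lower at day 21 in 4F (52.9% against 40.6% of all). Their median log2 fold change was 0.30 against 0.17 for all tested genes. These splits moved with scaling, to 27 higher and 22 lower with median-of-ratios, 27 and 21 with quantile normalization, and 25 and 28 with voom. Some low genes, named below, reached 1 TPM only at day 7, and any call of theirs in these counts is no support.

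ER calcium buffers and SERCA regulators had 6 of 8 tested genes higher and 0 lower at day 21 (75.0% against 40.6% of all tested genes). In each of the 3 other scalings 5 were higher and 1 was lower. Pln and Sln of this list were too low to test. Saraf, which damps store-operated entry, rose by 3.23 ± 0.13 from a mean of 11.2 to 114.0 TPM, and Calr, encoding the ER calcium store protein calreticulin, by 1.67 ± 0.11 from 471.7 to 1502 TPM. Of calcium sensors and egg activation targets, 9 of 15 were higher and 0 lower, with 1 to 3 lower in the other scalings. Of all tested genes 40.6% passed, 25.3% higher and 15.3% lower. Mos, the kinase behind the arrest of the egg, rose by 3.10 ± 0.22 from 12.9 to 119.3 TPM, and Fbxo43 (Emi2), the inhibitor that CaMKII marks for destruction at activation, by 3.02 ± 0.15 from 10.3 to 90.1 TPM. Both are proteins of the arrest that a calcium rise ends.

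Exchangers and Golgi pumps had 4 higher and 2 lower of 7 (85.7% against 40.6% of all tested genes). In each of the 3 other scalings 3 were higher and 2 lower. The exchanger gene Slc24a3 rose by 2.63 ± 0.22 to 86.6 TPM and the Golgi pump gene Atp2c2 by 1.74 ± 0.15 to 168.8 TPM. Slc8b1, the mitochondrial exchanger, fell by 1.86 ± 0.39 to 2.29 TPM and Slc24a5 by 1.37 ± 0.32 to 6.35 TPM. For mitochondrial uptake, 4 of 11 were higher and 2 lower (54.5% against 40.6% of all tested genes), but 2 were higher and 3 lower with voom and with quantile normalization, and 3 and 2 with median-of-ratios. Mcub, encoding the subunit that restrains the uniporter, rose by 5.39 ± 0.82 to 150.9 TPM. Its day 7 libraries were far apart, at 0.193 and 9.88 TPM or about 1 and 68 reads, and the log2 fold change was 3.80 without replicate 1 and 6.99 without replicate 2. Mcu, the pore, rose by 1.63 ± 0.29 to 17.6 TPM. Micu3 fell by 2.10 ± 0.39 to 2.39 TPM, and the outer membrane channel Vdac2 fell by 0.59 ± 0.12 to 38.5 TPM.

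Genes of IP3 production and turnover went both ways, with 3 higher and 4 lower of 13 (53.8% against 40.6% of all tested genes). The split was 3 and 6 with voom, 3 and 5 with median-of-ratios and 3 and 2 with quantile normalization. The phospholipase gene Plcb1 rose by 2.37 ± 0.41 to 38.2 TPM, with 1.66 and 3.08 without day 7 replicates 1 and 2. The IP3 phosphatase gene Inpp5b rose by 2.12 ± 0.18 to 85.5 TPM, and the IP3 kinase gene Itpkc fell by 1.24 ± 0.39 to 2.27 TPM. Plcd1 and Itpkb of this list, and Itpripl2 of the next, reached 1 TPM only in day 7 libraries. They entered the test only through the group where they were high, so any fall counted from them is no support. Regulators of the IP3 receptor had 2 higher and 3 lower of 10, where 40.6% of all tested genes passed. They had 1 higher and 6 lower with voom and with quantile normalization, and 1 and 5 with median-of-ratios. Tmbim6, an ER membrane protein that lowers store calcium, rose by 0.97 ± 0.12 and Itprip by 0.95 ± 0.23, while Itpripl1 fell by 2.99 ± 0.46 and Ahcyl2 by 0.89 ± 0.29. Of other calcium channels, 1 was higher and 3 were lower of 10, about the same share as the 40.6% of all tested genes. The split was the same with voom and median-of-ratios, and 1 and 2 with quantile normalization. The ryanodine receptor gene Ryr3 rose by 1.60 ± 0.30 to 10.6 TPM, and Pkd2 and the stretch-gated channel gene Piezo1 fell by 1.56 ± 0.35 and 1.46 ± 0.37. The adjusted p of the genes named in these lists was 0.0488 or less. Of these 22 genes, 16 passed in all 7 fits without a library, and Itpkc, Itprip, Ahcyl2, Pkd2, Piezo1 and Slc24a5 lost the call in at least 1, with an adjusted p of up to 0.170. The calls of 5 were lost without each day 7 library, of 2, 2 and 1 without 4F day 21 replicates 1, 2 and 3, and of 4 without each 8F library.

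**Figure D4:**
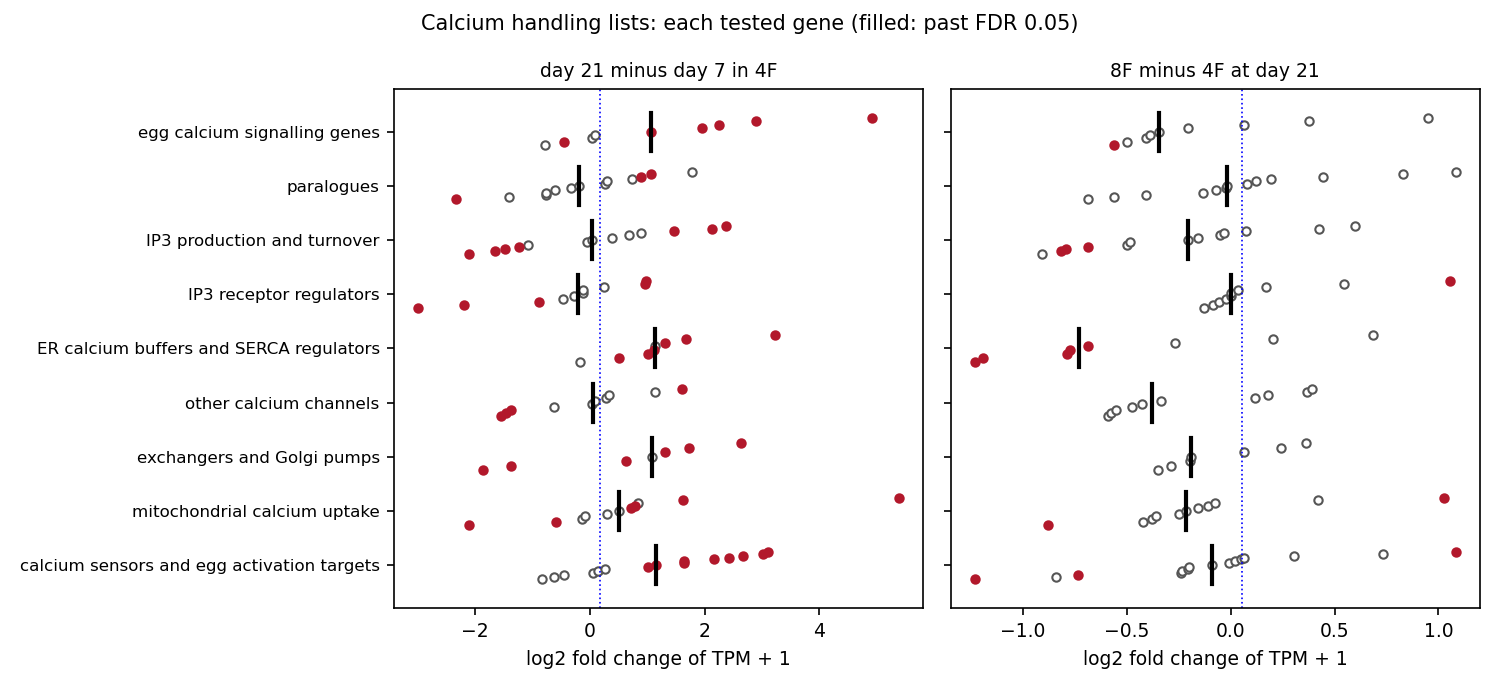
Log2 fold change of TPM + 1 (horizontal axes, a different range in each panel) for each tested gene of the calcium lists, between days in 4F (left) and between factor sets at day 21 (right). Filled red points passed FDR 0.05, black bars are list medians and the dotted line is the median of all tested genes; the median of the ER calcium buffers lies to its right between days (1.13) and to its left between factor sets (-0.73), with genes of the list on both sides in each panel.

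Between factor sets at day 21, the same lists had 3 of 87 tested genes higher and 11 lower in 8F (16.1% against 8.37% of all). Of the ER calcium buffers and SERCA regulators, 5 of 8 tested genes were lower and 0 higher in 8F (62.5% against 8.37% of all). This split was the same in each of the 3 other scalings. Calr was at 656.1 TPM in 8F against 1502 in 4F (log2 fold change -1.19 ± 0.11, adjusted p = 0.00502) and the ER chaperone gene Hsp90b1 at 478.3 against 1124 (-1.23 ± 0.12, adjusted p = 0.00487). Calm2 and Calm3, 2 of the 3 genes for calmodulin, were lower at -1.23 ± 0.12 and -0.74 ± 0.13. Plcg1 and Inpp5b were lower at -0.82 ± 0.16 and -0.79 ± 0.18, and Letm1 at -0.88 ± 0.18. Mos at 1.08 ± 0.22, Itprip at 1.05 ± 0.23 and Vdac3 at 1.03 ± 0.18 were higher in 8F. None of the 10 other calcium channels and 7 exchangers and Golgi pumps passed by limma or voom, with 0 and 1 at an unadjusted p under 0.05. Leaving out either 8F library leaves 1 library in that group, so calls lost in such a fit cannot tell whether these differences depend on a single replicate. Of the calls of the 10 named genes, 4, 5 and 6 were lost without 4F day 21 replicates 1, 2 and 3, and some without a day 7 library. Over all tested genes the number of calls went from 1822 to 943, 924 and 1021 without the same 4F replicates.

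For each member, the genes with the most similar profile were sought among all genes whose mean reached 10 TPM, by the root mean square difference of centred log2(TPM + 1) over the 7 libraries. They were Gm49388 and Rabgap1 for Itpr1 (0.0486 and 0.0645), Hook1 and Nop58 for Atp2b1 (0.0482 and 0.0554), Mark4 and Golga5 for Atp2a2 (0.0914 and 0.0973), and Stard13 and Camsap1 for Camk2g (0.0804 and 0.0897). Trpm7 was matched by Actn1 and Fkbp3 (0.0703 and 0.0721), Stim1 by Usf3 and Yme1l1 (0.0792 and 0.0834), Cacna1h by Ppp1r13l and Fasn (0.161 and 0.163), and Trpv3 by the pseudogene Gm4202 and Rbbp7 (0.129 and 0.145). Orai1 had the most distant neighbours, Shisa8 and Oog3 (0.262 and 0.279), against a spread of its own of 2.44. That spread was smaller in every other member, down to 0.220 in Atp2b1 and 0.201 in Itpr1. The distances of different members therefore do not rank how alike their neighbours are. With 7 libraries in 3 groups, many genes share such a profile.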

How the data were processed

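The TPM values were deposited by the authors, 1 table for the 7 libraries, prepared with the SMART-seq Stranded Kit. According to the methods, reads were trimmed with Trim Galore!, aligned to mm10 with Hisat2, freed of rRNA with Bedtools, restricted to unique alignments and counted on GENCODE vM25 with featureCounts, with reads over several genes split as fractions and no strand option stated. Unique mapping lowers genes with near-identical copies. NovaSeq instrument and read length differed, and the libraries on each are not given in the sources used here. The authors tested counts with edgeR; count tables were not analysed here, and a linear model of log TPM took the place of that test.

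A gene entered the test when 2 or more of the 7 libraries reached 1 TPM (21780 of 55364 did). The 3 groups were fitted together by limma 3.58.1 (R 4.3.3) to log2(TPM + 1), using lmFit and a variance trend in eBayes, and compared two-sided, with Benjamini-Hochberg adjustment over all genes tested at FDR 0.05. Fold changes are on this scale and understate changes of low genes; values after ± are SE for log2 fold changes and SD for TPM. Reads per library were recovered from TPM steps with exon lengths of GENCODE vM21 (98.1% of genes matched with version; 77.7% to 83.8% of low values were whole reads within 0.02 of a read). These estimates serve depth, floors and the voom alternative. Replicates differed by more than sampling noise. Figures and text name all members and paralogues, of each other list up to 2 genes in each direction with the largest significant change and at least 5 TPM in the higher group, and 2 most similar genes per member. Members, lists and tests were chosen with earlier results of these data known. Scripts were tested on simulated data. Alternatives were pseudocounts of 0.1 and 5, filters, rescaling by the median of ratios, quantile normalization, no variance trend, only the groups compared, a replicate block, voom, and leaving out each library.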

Additional observations from a re-analysis of the deposited data

How the results depend on the processing

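Across 62 log2 fold changes of single named genes, 885 of 1054 alternative values kept their direction and side of the threshold, 142 lost the threshold, 18 gained it and 9 changed sign. For 8F against 4F at day 21, the number of genes past FDR 0.05 was 1822; it was 994 without the variance trend and ranged from 306 to 2221 when a library was left out. The members past it numbered 1, but 0 after median-of-ratios rescaling, quantile normalization or without the trend, 2 with voom, and 0 to 1 when a library was left out. For 8F at day 21 against 4F at day 7, the genes past FDR 0.05 were 8103 and ranged from 4089 to 8281 when a library was left out. Between days in 4F they ranged from 7040 to 8943 over all alternatives, against 8847. The day comparison gave 6 members, 4 to 8 over the alternatives.

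Signs changed for 3 members, each with a change near 0 in the original fit. Camk2g between factor sets was -0.0072 without 4F day 21 replicate 2, and over the fits without a library it ran from -0.0150 (without 8F replicate 2) to 0.150. Itpr1 between days was -0.30 with median-of-ratios, -0.59 with quantile normalization, -0.49 with voom and from -0.10 (without day 7 replicate 2) to 0.17 over the fits without a library, and Atp2b1 was -0.24, -0.30 and -0.44 in the same 3 scalings. The cause was not tested.

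Deviations of equally numbered libraries correlated between -0.0369 and 0.0111. In a group of 2 libraries the deviations mirror each other, so these values cannot decide whether equally numbered libraries were paired. With a replicate block, 164, 7241 and 7037 genes passed in the factor, day and 8F against day 7 comparisons, with 0, 4 and 6 members. Depth limits Orai1 at day 7, with 0 reads, and Orai3 in 4F at day 21, with about 4 to 44. Orai1 is included in the counts of members above.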
